A study of Mus musculus with 8 samples.

Results

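The writers and erasers of N6-methyladenosine (m6A) are the enzymes and cofactors that place this mark on RNA or remove it, and their own mRNAs can carry it. Peaks of 10 genes were taken from a methylated RNA immunoprecipitation sequencing (m6A-seq) experiment in mouse embryonic stem cells (ESCs): the writer genes Mettl3, Mettl14, Wtap, Virma, Zc3h13, Cbll1, Rbm15 and Rbm15b, and the eraser genes Alkbh5 and Fto. A peak was taken when its exon blocks shared at least 1 base, on the same strand, with an annotated exon of one of these genes (GENCODE vM21, genome build mm10). This gave 37 of the 18895 peaks called after DMSO and 33 of the 13001 peaks called after Dox, or 70 of 31896 in all. The 10 genes stand among 22028 protein-coding genes of the annotation.

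The cells were of the ESC line E14, derived from the mouse embryo and grown in serum replacement with leukemia inhibitory factor. Per the paper they carried a tdTomato transgene driven by the MERVL promoter together with a doxycycline-inducible Dux transgene. All groups were of this line. They were treated for 24 h with doxycycline (Dox), which switches on Dux, a transcription factor of the 2-cell stage, or with DMSO as the control. Poly(A) RNA was cut to fragments of about 150 nt (per the labels) and sequenced before (input) and after immunoprecipitation with an antibody to m6A (IP), as 2 replicates in each of 4 groups, the IP and the input of DMSO-treated cells and those of Dox-treated cells, 8 libraries in all. The peak lists hold 1 value per treatment and no value per library, so no difference between treatments could be tested against the spread between replicates, and the depth of the libraries and the RNA level of each gene were not analysed here. The lists hold no expression values with which to check the labelled cell type against its markers.

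m6A is written on nascent mRNA by a complex whose core is METTL3, the catalytic subunit, and METTL14, which holds the RNA. WTAP anchors this core in nuclear speckles, VIRMA (KIAA1429) is a large scaffold, ZC3H13 links the parts and keeps them in the nucleus, CBLL1 (HAKAI) is a RING-finger protein of the complex, and RBM15 and RBM15B are RNA-binding proteins that recruit it to transcripts. FTO and ALKBH5 are dioxygenases that demethylate adenosine. In mRNA, m6A is found in DRACH contexts, of which GGAC is a common core, and is frequent in long exons and around stop codons. In ESCs, m6A marks transcripts of pluripotency genes and is read by YTH-domain proteins.

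The sequences of the peaks with the highest score in each list show what the strongest calls on these mRNAs looked like, with GGAC in capitals; the score of a peak was read as −log10 p of IP over input, and every peak in the lists scored above 10. The best DMSO peak lay in Cbll1 and is shown by the 100 of its 1000 nt with most GGAC, and the best Dox peak lay in a 3′UTR of Wtap and is shown by 30 nt. A stretch of 100 nt from the longest Rbm15 peak, chosen after its values were seen, is printed because it holds 5 copies of GGAC. All sequences are of build mm10 (GRCm38) and are written 5′ to 3′ on the strand of the gene.
Cbll1, chr12:31487539-31487638, minus strand: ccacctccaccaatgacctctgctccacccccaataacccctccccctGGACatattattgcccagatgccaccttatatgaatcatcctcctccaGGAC
Wtap, chr17:12974763-12974792, minus strand: ccaataagactgtGGACttcatgattgttg
Rbm15, chr3:107331133-107331232, minus strand: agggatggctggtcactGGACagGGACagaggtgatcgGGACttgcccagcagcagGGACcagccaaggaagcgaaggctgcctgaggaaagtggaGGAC

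Of the 70 peaks, 14 shared no base with a peak of the other list, and their sequences are shown as sites called after 1 treatment alone. An overlapping peak was present for 70.3% of the DMSO peaks of these genes and 90.9% of their Dox peaks. Among all peaks the shares were 57% and 92.7%. The Zc3h13 peak starting at 75330842 and the Rbm15b peak each lay 25 nt from a DMSO peak that a Dox peak overlapped. Their status therefore rests on keeping such close peaks apart. Of the 14 peaks, 11 were called after DMSO, printed whole where they are coding and as 30 nt where they lie in a 3′UTR. Peaks that cross an intron are printed as their joined exon blocks.
Virma DMSO peak, chr4:11513913-11514087, plus strand: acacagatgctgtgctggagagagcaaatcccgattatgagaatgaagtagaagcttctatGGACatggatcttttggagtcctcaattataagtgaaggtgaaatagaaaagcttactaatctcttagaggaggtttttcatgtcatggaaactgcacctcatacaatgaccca
Virma DMSO peak, chr4:11526643-11526767, plus strand: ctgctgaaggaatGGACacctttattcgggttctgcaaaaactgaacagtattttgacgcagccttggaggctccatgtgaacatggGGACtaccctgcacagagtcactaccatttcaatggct
Zc3h13 DMSO peak, chr14:75305823-75305847, plus strand: aagacataaaaattgttaaggagag
Zc3h13 DMSO peak, chr14:75305873-75308933, plus strand: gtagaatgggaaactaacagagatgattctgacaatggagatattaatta
Zc3h13 DMSO peak, chr14:75323795-75324507, plus strand: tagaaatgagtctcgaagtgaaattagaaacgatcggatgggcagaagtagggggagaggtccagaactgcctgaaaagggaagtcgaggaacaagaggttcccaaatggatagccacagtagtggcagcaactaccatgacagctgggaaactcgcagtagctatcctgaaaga
Zc3h13 DMSO peak, chr14:75330842-75330866, plus strand: gctcttgcctcctcagctgtttctg
Zc3h13 DMSO peak, chr14:75331117-75331241, plus strand: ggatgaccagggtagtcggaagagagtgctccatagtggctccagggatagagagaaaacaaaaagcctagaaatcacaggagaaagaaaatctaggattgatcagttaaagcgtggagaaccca
Rbm15b DMSO peak, chr9:106884613-106884637, minus strand: ccggcgaatcaagcaggggagccct
Fto DMSO peak, chr8:91666479-91666508, plus strand: ctttcttcctcaaaccttGGACaagggtag
Fto DMSO peak, chr8:91666809-91666838, plus strand: gacagaactagagacatccatcccagcttc
Fto DMSO peak, chr8:91667329-91667358, plus strand: atgtcagagcgtcagagagagcatGGACtc

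The Dox list held 3 member peaks with no counterpart in the DMSO list, 1 in Mettl14 and 2 in Zc3h13. None of the 3 contained GGAC.
Mettl14 Dox peak, chr3:123369472-123369496, minus strand: acatctgctggccgtggtcgggaaa
Zc3h13 Dox peak, chr14:75330942-75331016, plus strand: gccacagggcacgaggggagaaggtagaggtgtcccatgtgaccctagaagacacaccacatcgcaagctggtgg
Zc3h13 Dox peak, chr14:75331042-75331066, plus strand: aagcaatcgaagtcaccgcagccac

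Most of these genes carried called peaks under both treatments. After DMSO 8 of the 10 genes had a peak, after Dox 9 of 10, and 8 had one in both lists, against 27.5%, 22.1% and 21.5% of all protein-coding genes. Among the 8799 protein-coding genes whose exonic length falls in the range of the 10 genes (4007 to 13031 nt), the shares were 39.4%, 31.4% and 30.9%. Mettl3 had no peak in either list, and Mettl14 had a peak only after Dox. With only peaks that scored at or above the DMSO median kept, 8 genes remained after DMSO and 6 after Dox, so the order of the treatments turned. This cutoff comes from the DMSO list and was used for both. The median score of all peaks of protein-coding genes was 11.6 after DMSO and 11.5 after Dox. The share of all genes kept under the cutoff is not given here. By role, 6 of the 8 writer genes carried peaks after DMSO (30 peaks) and 7 after Dox (29 peaks), and both eraser genes had peaks in both lists, with 7 and 4 peaks.

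The number of member peaks was 37 after DMSO and 33 after Dox, a ratio of 1.12 (95% Wilson interval 0.704 to 1.79, covering counting error only), beside 1.45 (1.42 to 1.49) for the whole lists. The interval takes peaks as independent. However, the lists held 31 pairs of overlapping member peaks, and Zc3h13 alone had 11 and 12 peaks. The DMSO list was also cut to its 13001 top-scoring peaks, the size of the Dox list, which stayed whole. This left 28 member peaks in DMSO beside 33 in Dox, a ratio of 0.848 (0.515 to 1.40). The order of the treatments thus turned, under a cut that removes DMSO peaks only and makes the whole lists equal by construction. The peaks covered 12725 nt of exon after DMSO and 10500 nt after Dox, or 18.4% and 15.2% of the 69123 exonic nt of the 10 genes. The ratio of covered bases was 1.21 for these genes and 1.47 for the whole lists. Covered bases common to both lists came to 10175 nt, which is 80.0% of the DMSO bases and 96.9% of the Dox bases.

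**Figure D1:**
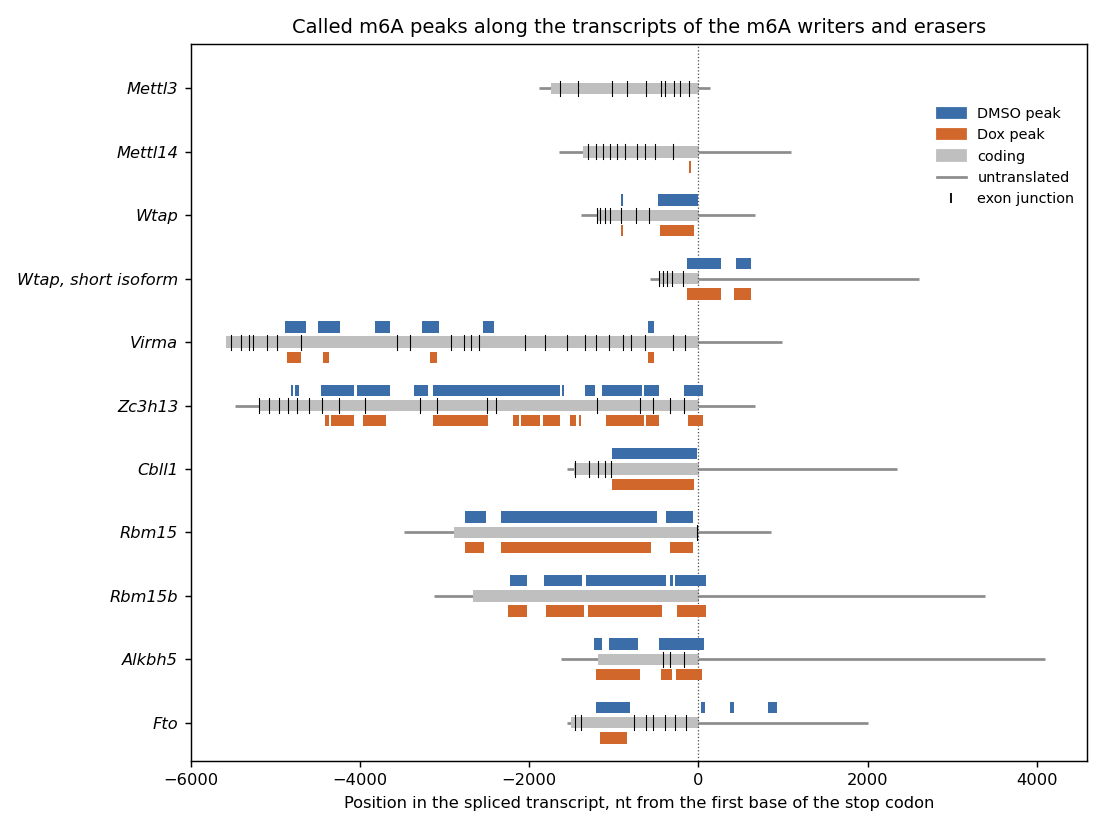
Called m6A peaks along the spliced transcript with the longest coding sequence of each gene, in nt from the first base of the stop codon (x axis), with DMSO peaks above and Dox peaks below each transcript; thick grey is coding sequence, thin grey is untranslated, and ticks are exon junctions. A short isoform of Wtap is drawn for the 2 peaks per list whose middle lies outside the long one. Peaks lay mainly over coding sequence, Zc3h13 had the most peaks (11 and 12), and Mettl3 had none.

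Mettl3 (chr14:52294841-52305128, minus strand), which encodes the catalytic subunit, had 0 peaks in each list. Its transcript of 2025 nt has 11 exons, of which the longest has 405 nt, and contains 14 copies of GGAC. At 6.91 GGAC per kb this was the densest of the 10 chosen transcripts, the others ranging from 3.65 per kb in Mettl14 to 6.22 per kb in Rbm15. By the share of coding sequence inside peaks, the 2 densest transcripts stood at opposite ends, Mettl3 with none and Rbm15 with the highest share. Mettl14, the least dense transcript, had no DMSO peak either. The RNA level of Mettl3 was not analysed here, so its missing calls set no limit on methylation.

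Mettl14 (chr3:123368297-123386108, minus strand), the RNA-binding partner of METTL3, had 0 DMSO peaks and 1 Dox peak. The peak was 25 nt long in the coding part of exon 11, between 108 and 84 nt before the stop codon. Its score was 10.1, at percentile 1.86 of the Dox list, next to the lower limit of the scores. The transcript contains 10 copies of GGAC, none of them in the peak.

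Wtap (chr17:12966796-12994169, minus strand), the adaptor that brings the core to nuclear speckles, had 4 peaks in each list, and each peak had its counterpart in the other. They covered 1075 nt after DMSO and 1025 nt after Dox, 17.2% and 16.4% of its exonic bases. In the last exon of the long isoform, a peak of 475 nt after DMSO (score 12.3) ended 1 nt before the stop codon, and the Dox peak inside it had 400 nt (score 12.2). A peak of 25 nt in exon 6 had the same bases in both lists, with scores of 10.1 and 10.3.

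The other 2 Wtap peaks of each list had their middle in the 2790 nt last exon of a short isoform, which reads on from exon 6 into the intron and has a coding sequence of 453 nt. The peak at chr17:12975024-12975423 had the same 400 nt in both lists, from 129 nt before to 270 nt after the first base of the stop codon of the short isoform, with scores of 12.4 after DMSO and 11.1 after Dox. A further peak in the 3′UTR of this isoform had 175 nt and a score of 13.7 after DMSO, and 200 nt and a score of 14.3 after Dox, the highest score of the 33 Dox peaks.

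The 25 nt peak, the 400 nt peak and the 3′UTR peak of Wtap had near-identical sequence elsewhere in the genome, at 98% identity or more over at least 90% of the peak. The 400 nt peak matched chromosome 2 (chr2:179177749-179178148, 99.8% identity) in the processed pseudogene Gm14292 and chromosome 8 (chr8:3841828-3842227, 98.5% identity) in the processed pseudogene Gm7381. The 25 nt peak matched chromosome 2 at 100% within Gm14292, and the 3′UTR peak matched chromosome 2 with no annotated gene there. Neither list had a peak at these loci. How reads that fit several loci were placed is not given in the sources used here, so these peaks are uncertain as to the copy they came from. No other member peak had such a locus, 3 of 37 and 3 of 33 in all.

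Virma (chr4:11485958-11550684, plus strand), the large scaffold, had 6 DMSO and 4 Dox peaks, all in coding sequence. Among the 8 genes with peaks in both lists it had the lowest share of covered bases after Dox relative to DMSO: 1075 nt after DMSO and 400 nt after Dox. The ratio of Dox over DMSO was 0.372, at percentile 15.4 of 4725 of the 4730 protein-coding genes with peaks in both lists. Peaks over the junction of exons 7 and 8 had 250 nt (score 12.2) and 175 nt (score 11.6). In exon 8, of 1141 nt, a peak of 250 nt with a score of 14.4 after DMSO was reduced to 75 nt with a score of 13.7 after Dox. In exon 10 the lengths were 200 and 75 nt, with scores of 11.2 and 11.4. In exon 23 the same 75 nt were called in both lists, with a score of 10.7 in each.

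The 2 further Virma peaks, of 175 nt in exon 8 and 125 nt in exon 14, were called after DMSO only. Their scores of 10.5 and 10.6 stood at percentiles 12.1 and 13.0 of the DMSO list, close to the lower limit. They contain 1 and 2 copies of GGAC, and the Dox list had 3 of the 29 copies of the Virma transcript inside peaks where the DMSO list had 7.

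Zc3h13 (chr14:75284373-75344426, plus strand), which encodes the zinc-finger linker, had the largest share of its annotated exonic bases inside peaks of the 10 genes. On the chosen transcript alone it led after DMSO (58.2%, beside 55.8% for Rbm15) but not after Dox (42.7%, beside 52.4% for Rbm15). It had 11 peaks and 3575 nt after DMSO and 12 peaks and 2625 nt after Dox, 56.9% and 41.8% of its exonic bases. Among all protein-coding genes with a peak in the same list these shares stood at percentiles 98.7 and 96.5, and its numbers of peaks at 98.0 and 99.1. The peaks spread over exons 5 to 19 after DMSO and exons 8 to 19 after Dox.

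The number of Zc3h13 peaks and the bases they cover moved in opposite directions. A single DMSO peak of 1500 nt in 4 blocks (score 11.8) was met by 4 Dox peaks of 650, 75, 225 and 200 nt with scores of 12.7, 11.8, 12.7 and 11.5, and a DMSO peak of 400 nt by 2 Dox peaks of 50 and 275 nt. Neighbouring peaks often lay close together: with peaks 25 nt or less apart joined, both lists had 7 Zc3h13 peaks. In both lists a peak covered the stop codon, from 168 nt before it after DMSO (225 nt, score 13.9) and from 118 nt before it after Dox (175 nt, score 11.4), and both ended on the same base 56 nt behind the first base of the stop codon.

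Of the Zc3h13 peaks, 5 were in the DMSO list only, of 25, 50, 175, 25 and 125 nt. Their scores ran from 10.5 to 12.8, and none contains GGAC. Both Dox-only peaks, of 75 and 25 nt with scores of 10.4 and 11.1, lie in exon 14, 25 nt apart, in a gap between DMSO peaks. Inside peaks of both lists lay 24 of the 31 copies of GGAC in the transcript, 2 lay in DMSO peaks alone, and 5 lay in none.

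Cbll1 (chr12:31484829-31499616, minus strand), which encodes HAKAI, had 1 peak in each list, over the coding part of its last exon. It was 1000 nt long after DMSO and 975 nt after Dox, with the same upstream end, 1022 nt before the stop codon, and it ended 23 and 48 nt before the stop. The score of 16.5 was the highest of the 37 DMSO peaks, at percentile 93.0 of its list, and the Dox score of 13.2 stood at percentile 81.0. The 2343 nt of 3′UTR in the same exon were outside peaks. GGAC was less dense inside this peak than in the rest of the transcript, with 3.0 copies per kb inside and 4.14 outside after DMSO, and 2.05 and 4.44 after Dox.

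Rbm15 (chr3:107325421-107333673, minus strand) and Rbm15b (chr9:106880918-106887428, minus strand) encode paralogous proteins that recruit the complex to RNA. Rbm15 had 3 peaks in each list, all in the coding part of its first exon of 3459 nt. Their lengths were 250, 1850 and 325 nt after DMSO and 225, 1775 and 275 nt after Dox, in the order of the transcript, with scores of 11.8, 12.5 and 14.7 and of 12.6, 11.9 and 13.8. The peaks covered 83.9% and 78.7% of the coding sequence, the highest shares of the 10 genes. The middle peak was the longest member peak in each list and holds 19 copies of GGAC in both.

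Rbm15b is a single exon of 6511 nt. It had 5 DMSO peaks of 200, 450, 950, 25 and 375 nt and 4 Dox peaks of 225, 450, 875 and 350 nt, with scores from 10.9 to 11.9 and from 10.9 to 13.0. The last peak of each list ran over the stop codon and ended on the same base, 93 nt behind its first base, and the rest of the 3′UTR of 3386 nt was outside peaks. The DMSO-only peak of 25 nt (score 11.8) lay 25 nt before the start of the last DMSO peak. All 21 copies of GGAC that were inside DMSO peaks were inside Dox peaks too, of 32 in the transcript.

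**Figure D2:**
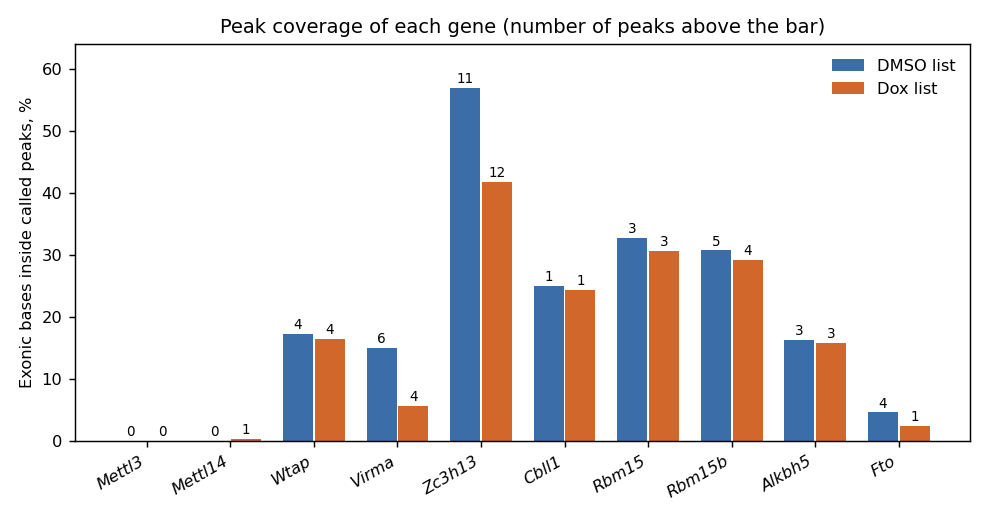
Percentage of the exonic bases of each gene that lay inside called peaks (y axis), in the DMSO and the Dox list, with the number of peaks above each bar; each bar is 1 list, so there is no error bar. Zc3h13 led with 56.9% and 41.8%, and among the 8 genes with peaks in both lists the relative distance between them was widest in Virma (15.1% and 5.60%).

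Alkbh5 (chr11:60536381-60558512, plus strand), which encodes the nuclear demethylase, had 3 peaks in each list over 975 and 950 nt. After DMSO a peak of 100 nt crossed the start codon (52 nt of 5′UTR and 48 nt of coding sequence, score 13.0), followed by 350 nt in exon 1 (score 11.5). A single Dox peak of 525 nt (score 11.4) overlapped both and also crossed the start codon. Farther on, a DMSO peak of 525 nt in 4 blocks ran from exon 1 over the stop codon in exon 4 (score 12.0), and 2 Dox peaks of 125 and 300 nt (scores 11.4 and 11.3) overlapped it, the second also over the stop codon. The coding sequence was covered to 72.6% after DMSO and 74.7% after Dox, the 3′UTR of 4097 nt to 1.46% and 0.854%.

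Fto (chr8:91313525-91668439, plus strand), which encodes the other demethylase, had 4 DMSO peaks and 1 Dox peak. The peak in exon 3 was called in both lists, with 400 nt and a score of 12.5 after DMSO and 325 nt and a score of 11.1 after Dox. The 3 other peaks were in the 3′UTR of the DMSO list only, of 50, 50 and 100 nt, with scores of 10.3, 10.3 and 10.9 at percentiles 6.34, 6.77 and 24.6. They are the only member peaks whose middle lay in the 3′UTR of a chosen transcript. With 4.60% and 2.49% of exonic bases in peaks, Fto was the least covered of the 8 genes with peaks in both lists when all annotated exons were counted (13031 nt). On the chosen transcripts Virma was lower, with 16.4% and 6.09% beside 16.8% and 9.12% for Fto. The covered bases of Fto had a ratio of Dox over DMSO of 0.542, at percentile 30.3.

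All 8 genes with peaks in both lists had fewer covered bases after Dox. Of the 4730 protein-coding genes with peaks in both lists, 4725 enter this comparison, and 85.7% of these had fewer. In the 8 genes the median ratio of Dox over DMSO was 0.944 (range 0.372 to 0.975). Over the 4725 genes the median was 0.704 (quartiles 0.5 and 0.875). For Wtap, Cbll1, Rbm15, Rbm15b and Alkbh5 the ratio lay between 0.938 and 0.975, at percentiles 82.7 to 85.2, and for Zc3h13 it was 0.734 at percentile 54.2. Virma and Fto stood below the median of all genes, as given above. The number of peaks was higher after DMSO in 3 genes, higher after Dox in 1 and equal in 4. Over all 4730 protein-coding genes with peaks in both lists it was higher after DMSO in 2336, higher after Dox in 638 and equal in 1756.

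Of the member peaks, 26 of 37 after DMSO (70.3%, 95% Wilson interval 54.2 to 82.5%) and 30 of 33 after Dox (90.9%, 76.4 to 96.9%) overlapped a peak of the other list by at least 1 base, where 57% and 92.7% of all peaks did. The DMSO peaks with a counterpart had a median length of 362.5 nt and a median score of 12.1, and 25 of the 26 contained GGAC. The 11 without one had a median length of 50 nt and a median score of 10.9, and 4 of them contained GGAC. They made up 925 nt of the 12725 nt covered after DMSO and 5 copies of GGAC, so the other bases called after DMSO alone lay in DMSO peaks that a Dox peak overlapped in part. Zc3h13 held 5 of these, Fto 3, Virma 2 and Rbm15b 1. The 3 Dox-only peaks had lengths of 25 to 75 nt and scores of 10.1 to 11.1. In rank within the DMSO list, the 11 peaks had a median percentile of 24.6 (range 6.34 to 73.7) and the 26 others one of 61.8 (2.53 to 93.0), so the ranges overlapped. Length, score and GGAC content are not given here for all peaks called in 1 list only. These traits therefore cannot be called particular to the 10 genes.

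Among 21 pairs in which 1 DMSO peak met 1 Dox peak, 15 had the longer peak after DMSO and 2 after Dox, and 4 pairs were of the same length, 3 of them with identical blocks. Over all 8891 such pairs of the lists the DMSO peak was longer in 68.9% and the Dox peak in 10.9%. Every member peak had a length that is a multiple of 25 nt, so a difference of 25 nt is 1 step. The score was higher after Dox in 9 of the 21 member pairs (42.9%) and in 33.9% of all pairs, and its percentile within its own list in 11 of the 21 and in 37.9%, so the 2 measures put the majority of the member pairs on different sides.

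**Figure D3:**
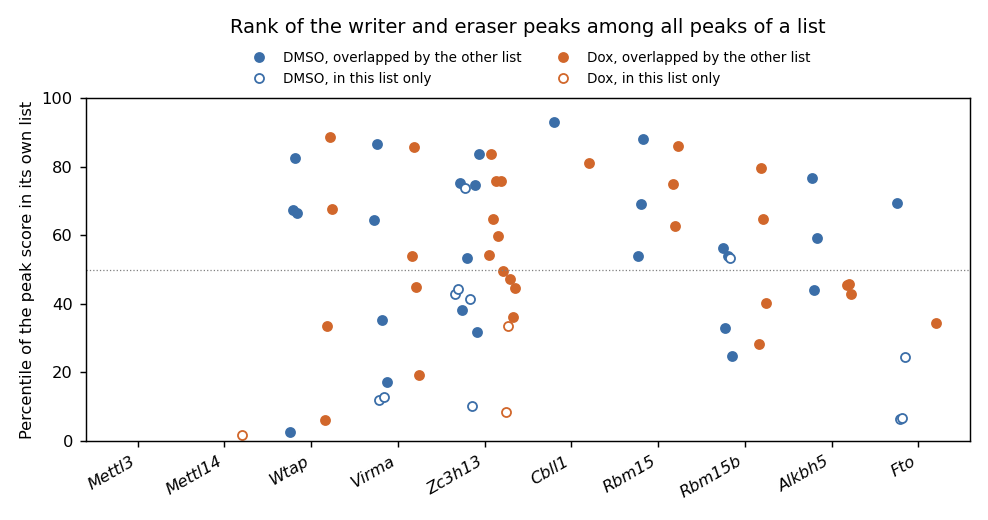
Percentile of each member peak's score within all peaks of its own list (y axis), by gene; filled points are peaks overlapped by the other list, open points are peaks in 1 list only, and the dotted line is the median of a list. Of the 14 open points 12 lie under the median of their list, with the Mettl14 peak at percentile 1.86 and the highest open point, in Zc3h13, at 73.7. The share under the median among all peaks in 1 list only is not given.

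Most member peaks sat in coding sequence. Of the peaks whose middle lay on the chosen transcript, 31 of 35 after DMSO (88.6%, 95% Wilson interval 74.0 to 95.5%) and 31 of 31 after Dox (100%, 89.0 to 100%) were coding, beside 72.3% and 71.4% of all peaks of protein-coding genes. The 2 peaks of each list that are left out of these shares are those of the short isoform of Wtap, which have their middle in its 3′UTR, so 6 of 37 DMSO peaks and 2 of 33 Dox peaks had their middle outside coding sequence. Counted in bases, 47.6% of the coding sequence of the 10 genes was inside DMSO peaks and 39.6% inside Dox peaks, beside 20.4% and 13.8% for the 6174 genes with a peak in either list. Of the 3′UTR bases 2.49% and 1.11% were inside peaks, beside 8.60% and 5.84%, and of the 5′UTR bases 2.05% and 1.06%, beside 6.27% and 4.89%. Mettl3 and Mettl14 are included in these shares. They enter the comparison although Mettl3 has no peak, whereas the genes beside them all have at least 1.

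**Figure D4:**
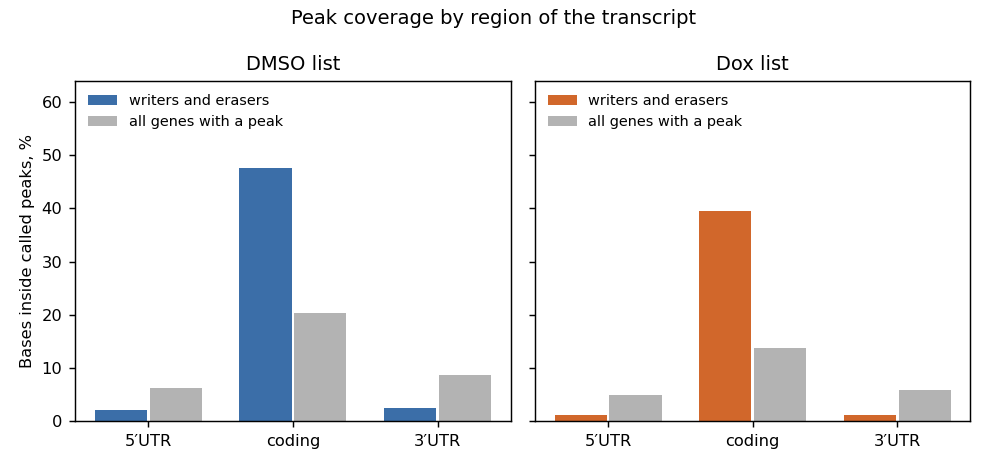
Percentage of bases inside called peaks (y axis) in the 5′UTR, the coding sequence and the 3′UTR, for the chosen transcripts of the 10 writers and erasers (coloured) and of the 6174 protein-coding genes with a peak in either list (grey). In each list the coloured bar is the higher one in coding sequence and the lower one in both UTRs.

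On the chosen transcript alone, 4 of 37 member peaks after DMSO (10.8%, 95% Wilson interval 4.29 to 24.7%) had their middle within 200 nt of the stop codon. After Dox 5 of 33 did (15.2%, 6.65 to 30.9%). Of all peaks of protein-coding genes, counted in the same way, 21.9% and 24.1% did, and both intervals hold these shares. The 400 nt Wtap peak had its middle 70 nt behind the first base of the stop codon of the short isoform. It is not among the peaks counted at the stop codon in either list. With the stop codon of any coding transcript of the gene the counts were 6 of 37 (16.2%) and 7 of 33 (21.2%). The share of all peaks at any such stop codon is not given here. The stop codon itself was under a peak in Zc3h13, Rbm15b and Alkbh5 in both lists, and in the short isoform of Wtap. In Wtap, Cbll1 and Rbm15 the nearest peak of each list ended before the stop codon of the chosen transcript, by between 1 and 62 nt. Exons of 400 nt or more held the middle of 27 of 37 DMSO peaks (73.0%) and 26 of 33 Dox peaks (78.8%), beside 62.8% and 69.0% of all peaks. Such exons made up 32662 nt of the 10 chosen transcripts, whose 5′UTR, coding sequence and 3′UTR had 2539, 24810 and 16240 nt. In the 6174 genes with a peak they made up 14311083 nt, beside 1448574, 12649977 and 9482990 nt. The peak shares were not corrected for this exon structure. Of the member peaks, 24.3% and 24.2% crossed a splice junction, beside 26.6% and 21.8%. Member peaks had a median length of 225 nt in both lists, beside 125 nt, whereas the median score was 11.8 and 11.5, beside 11.6 and 11.5.

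The core motif GGAC was found in 29 of 37 DMSO peaks (78.4%, 95% Wilson interval 62.8 to 88.6%) and 25 of 33 Dox peaks (75.8%, 59.0 to 87.2%), beside 54.1% and 55.9% of all peaks of protein-coding genes. Longer peaks contain a motif more often, so its density was taken as well, on the strand of the gene and with no overlap possible between copies. Inside member peaks there were 7.90 copies per kb after DMSO and 8.38 after Dox, against 3.48 and 3.64 in the rest of the same transcripts, ratios of 2.27 and 2.30. Over the 6174 genes with a peak these ratios were 1.60 and 1.67. Of the 12278 nt inside DMSO member peaks 11821 were coding, beside 2575629 of 3481589 nt over the 6174 genes. The ratios thus compare unlike mixes of coding sequence and UTR, and density within coding sequence alone was not taken. Among the 8 genes with peaks in both lists, the density was higher inside than outside in each list, except in Cbll1 in both lists and in Fto after Dox (3.08 and 4.01). The reverse complement GTCC, searched on the same strand as a control, had 2.12 and 2.09 copies per kb inside member peaks and 3.67 and 3.58 outside, ratios of 0.577 and 0.586. For GTCC the ratios over the 6174 genes were 0.967 and 0.988, so the member peaks stood apart from the rest of their transcripts in both motifs, and the part of base composition in the GGAC values was not tested.

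The 10 chosen transcripts contain 206 copies of GGAC. Of these, 83 (40.3%) were inside peaks of both lists, 14 inside DMSO peaks only, 1 inside a Dox peak only and 108 outside peaks. Over the 99181 copies in genes with a peak, 14.8% were inside peaks of both lists and 77.4% outside. The copies were unequally placed: 22 of 27 in Rbm15, 24 of 31 in Zc3h13 and 21 of 32 in Rbm15b were inside peaks of both lists, against 3 of 29 in Virma, 2 of 15 in Cbll1, 1 of 14 in Fto, 0 of 14 in Mettl3 and 0 of 10 in Mettl14. A match to GGAC is a description of the sequence and not a mapped methylated base.

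**Figure D5:**
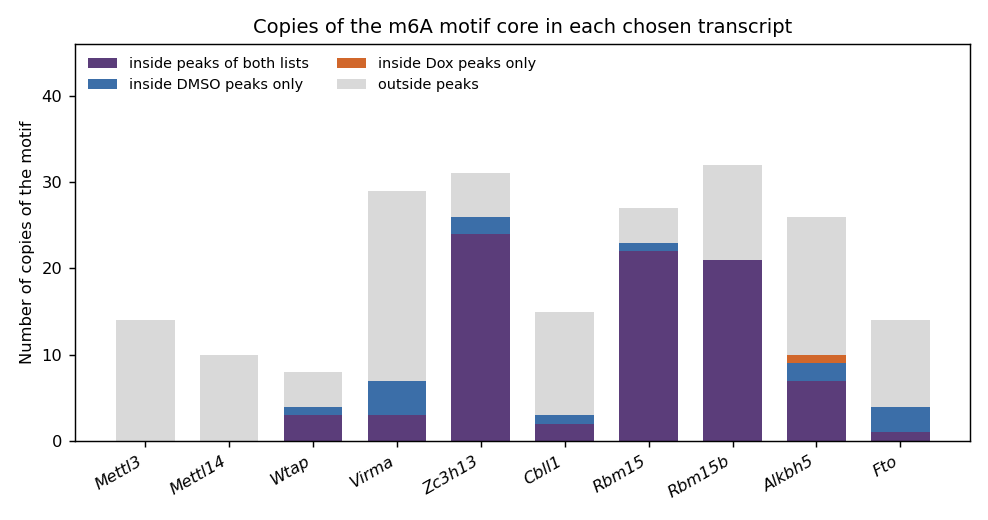
Number of copies of GGAC in the chosen transcript of each gene (y axis, bar height), divided into copies inside peaks of both lists, of the DMSO list only, of the Dox list only, and outside peaks. In Zc3h13, Rbm15 and Rbm15b most copies lay inside peaks, whereas all 14 in Mettl3 and all 10 in Mettl14 lay outside.

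Other genes of the pathway were counted in the same way. Among 11 genes for other RNA methyltransferases and demethylases and for the supply of S-adenosylmethionine, the methyl donor, 7 carried peaks after DMSO (11 peaks) and 5 after Dox (7 peaks). Of all protein-coding genes, 27.5% and 22.1% did, without matching for exonic length. For genes with a peak in 1 list only, the share over all genes is not given here. Mat2a, which encodes the S-adenosylmethionine synthetase subunit, had 2 peaks in each list over 625 and 600 nt, Ahcy, which removes the product of methylation, 2 peaks in each over 400 nt, and Mettl16, the methyltransferase of U6 snRNA and Mat2a mRNA, 2 and 1, as had Pcif1, which methylates cap-adjacent adenosine. Mettl5 and its partner Trmt112 had 1 peak each after DMSO only, of 25 and 125 nt. Zcchc4, Mettl4, Alkbh3 and Mat2b had none.

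Among 12 reader genes, 10 carried peaks after DMSO (44 peaks) and 10 after Dox (29 peaks), 9 of them in both lists. Beside this stand 27.5% and 22.1% of all protein-coding genes, 21.5% with a peak in both lists, and 18895 and 13001 peaks in the whole lists, a ratio of 1.45. These shares were not matched for exonic length. The share of all genes with a peak in 1 list only is not given here. Ythdc2 had none, Fmr1 had 5 peaks after DMSO only, and Rbmx 1 peak of 50 nt after Dox only. Igf2bp1 and Hnrnpa2b1 had most DMSO peaks, 9 each, and 5 and 3 after Dox.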

How the data were processed

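m6A-seq was performed by the authors on 8 libraries. Reads were filtered with fastp (0.19.4) and aligned to mm10 with HISAT2 (2.2.1), and exomePeak2 called the peaks from IP against input; its version and settings, the placing of reads with several matches and the joining of replicates are not given in the sources used here. The library was stranded. The deposited files are 1 list of spliced peaks per treatment, whose score, stored by the authors with no header, was read as −log10 of a p-value from its values (all above 10, some infinite); whether it is adjusted is not given. No differential columns were used.

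Peaks were matched to GENCODE vM21 exons by strand and at least 1 shared base. Shares by region and at the stop codon use the transcript with the longest coding sequence (chosen transcript). Where it lacks the middle of a peak, the position given for that peak refers to another coding transcript with a stop codon, and its exon length to the longest exon that holds the middle. In each list, 99.8% of inner block edges fell on annotated exon edges, which checks the build. GGAC was searched in GRCm38 sequence, and near-identical loci with blastn 2.17.0. The code ran under Python 3.11.15 and was tested on simulated peaks. With 1 list per treatment no test was possible. Wilson intervals (95%) cover counting error only, and PCR reads are not independent molecules. The intervals take peaks as independent, which peaks of the same gene or of a site called in both lists are not. All 10 genes and each of their peaks could be named, and of the related genes those with a peak in 1 list only or with most peaks. The genes and lists were chosen with earlier results of these data known.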

Additional observations from a re-analysis of the deposited data

How the results depend on the processing

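In all, 14 results were computed under other settings, giving 120 values, of which 109 stayed within 1.5 times the count or within the interval of the share and 11 did not. Keeping only peaks that scored at or above the DMSO median (11.6) left 20 DMSO and 14 Dox peaks and 6750 nt of Dox cover. Of these DMSO peaks 90% had GGAC, and 92.9% of the Dox peaks were in long exons. Overlap was counted between the 2 cut lists, and 50% of these DMSO peaks met a Dox peak that was also kept. In the full lists, 8 of the 26 overlapped DMSO peaks and 9 of the 11 others lay under percentile 50 of the DMSO list. Asking for 50% of both peaks to be shared lowered the Dox overlap to 66.7%. DRACH in place of GGAC was found in 91.9% of DMSO and 87.9% of Dox peaks, and exons of 1000 nt or more held 56.8% and 60.6%. Of these, the score threshold and the wider motif or longer exon change what is counted by construction, and for the rest the cause was not tested. With equal list sizes the ratio of peak numbers turned, as given above. Ignoring strand, using whole spans, using exons of protein-coding transcripts only or giving each peak to 1 gene left 37 and 33 peaks, and leaving out the Wtap peaks with near-identical loci left 34 and 30. After the data were seen, 2 settings were added: peaks 25 nt or less apart joined, which left 31 DMSO and 27 Dox peaks, and the stop codon of any coding transcript, which put 16.2% and 21.2% of peaks at a stop. The overlap between the lists was not counted again with peaks joined. No paired analysis was possible because the lists give no value per replicate, and for the same reason no replicate could be left out. Read depth over genes without a peak was not analysed here, so a missing call sets no limit on methylation.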
